A study of Mus musculus with 6 samples.

Results

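Peptide hormones and neuropeptides were examined as 10 genes, Calca, Calcb, Grp, Nmb, Cck, Gal, Npy, Sst, Tac1 and Penk, chosen by symbol, and all 10 were among the 22477 gene symbols of the deposited count table. The libraries came from 4 tumors (n = 4) and 2 normal lungs (n = 2) of mice carrying floxed Rb1, floxed Trp53 and a Cre-dependent Myc T58A allele, a model of small cell lung cancer. Tumors in this model were induced at 8 weeks of age with an adenovirus, Ad5CGRP-Cre, given into the trachea, and the labels give the same genotype and the same virus for the normal samples. The labels state neither the age at collection nor a treatment arm for any of these animals. The libraries, each from a different mouse and all in 1 batch, are called normal 1 and 2 and tumor 3, 4, 5 and 6, after the numbers in their titles.

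Most neuropeptides are made as inactive precursors, which prohormone convertases cut at pairs of basic residues and which are then trimmed and often amidated inside dense core granules. Released peptides act on G protein-coupled receptors and are broken down by peptidases on the surface of neighbouring cells. In the lung, pulmonary neuroendocrine cells are a major source of calcitonin gene-related peptide (CGRP) and of the bombesin-like peptide GRP. The virus used here carries a CGRP promoter ahead of Cre, so Cre is directed to cells in which that promoter is active.

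The promoters of the 5 members that were higher or detected only in tumors are shown beside that of Gal, the member that fell. The RefSeq table (GRCm38.p6) matched 7 of the 10 genes, and Calcb, Grp and Penk were not among them. Each sequence is the 250 bases before the annotated start, 5′ to 3′ on the gene's strand. Capitals mark CANNTG, the core bound by basic helix-loop-helix factors, and TGACG, the core of the cyclic AMP response element, on either strand (CGTCA on the other).
Calca, chr7:114636358-114636607, minus strand: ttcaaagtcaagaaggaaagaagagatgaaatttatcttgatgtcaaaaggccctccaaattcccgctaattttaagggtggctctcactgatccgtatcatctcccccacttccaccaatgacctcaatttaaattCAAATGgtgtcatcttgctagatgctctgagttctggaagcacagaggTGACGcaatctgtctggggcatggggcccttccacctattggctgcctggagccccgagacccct
Cck, chr9:121495695-121495944, minus strand: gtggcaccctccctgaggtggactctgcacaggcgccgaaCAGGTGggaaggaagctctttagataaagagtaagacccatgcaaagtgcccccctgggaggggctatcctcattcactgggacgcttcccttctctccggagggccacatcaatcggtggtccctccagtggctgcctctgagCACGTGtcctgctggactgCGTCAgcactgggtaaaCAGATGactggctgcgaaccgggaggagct
Tac1, chr6:7554811-7555060, plus strand: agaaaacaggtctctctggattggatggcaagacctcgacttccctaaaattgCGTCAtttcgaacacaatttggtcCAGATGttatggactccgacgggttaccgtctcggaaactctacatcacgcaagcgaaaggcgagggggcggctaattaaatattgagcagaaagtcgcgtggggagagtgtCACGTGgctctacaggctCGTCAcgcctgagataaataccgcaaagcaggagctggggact
Sst, chr16:23890845-23891094, minus strand: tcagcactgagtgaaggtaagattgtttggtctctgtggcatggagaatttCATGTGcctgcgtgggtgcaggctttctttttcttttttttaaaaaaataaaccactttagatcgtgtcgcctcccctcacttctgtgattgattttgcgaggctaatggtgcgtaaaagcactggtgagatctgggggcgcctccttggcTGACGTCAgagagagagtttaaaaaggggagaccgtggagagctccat
Npy, chr6:49822460-49822709, plus strand: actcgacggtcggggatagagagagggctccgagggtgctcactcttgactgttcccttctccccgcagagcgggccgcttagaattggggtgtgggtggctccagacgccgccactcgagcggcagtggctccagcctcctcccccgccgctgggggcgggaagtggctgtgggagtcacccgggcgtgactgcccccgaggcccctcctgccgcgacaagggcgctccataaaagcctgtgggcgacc
Gal, chr19:3414545-3414794, minus strand: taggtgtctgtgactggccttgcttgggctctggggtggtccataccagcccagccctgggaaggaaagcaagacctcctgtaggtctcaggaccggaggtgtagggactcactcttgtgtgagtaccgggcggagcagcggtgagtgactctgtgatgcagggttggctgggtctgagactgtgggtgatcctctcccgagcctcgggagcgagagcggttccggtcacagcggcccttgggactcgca
Both motifs occurred in the same 4 of the 7 promoters, those of Calca, Cck, Sst and Tac1, and neither occurred in those of Gal, Nmb and Npy. Over all 32851 promoters of the table, windows of the same length held TGACG in 17.8% and CANNTG in 66.2%. In Calca the TGACG lies 65 to 61 bases before the start. In Sst the copies on the 2 strands overlap, 48 to 41 bases before the start, and Tac1 holds 2 separate copies. These are matches of letters and not binding data, and the only overlap between matches is the one in Sst.

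Total counts ran from 54735438 to 99122494 per library. Levels are counts per 1000000 (CPM) on library sizes scaled by edgeR's TMM method, and a change passed the test at an adjusted p under 0.05 in edgeR's quasi-likelihood test over 18027 genes. By that test 31.3% of all tested genes were higher and 32.6% lower in tumors, 63.9% in either direction. All 10 markers of pulmonary neuroendocrine cells were higher in tumors (median log2 fold change 6.49), among them Syp, Uchl1, Scg2 and Ncam1 at 15.0-fold, 42.3-fold, 110-fold and 30.6-fold. Some of the 10, Chga among them, needed their tumor counts to pass the filter on low counts. The 6 markers of lung epithelium together stood at 41951 and 37955 CPM in normal 1 and 2 and at 73.2 to 646 CPM in tumors, lowest in tumor 6. All 5 markers of endothelium and all 6 of leukocytes were lower, with summed levels of 1.38% to 4.34% and 12.4% to 21.3% of the normal mean. Of 5 fibroblast markers 3 were lower, Col1a1 and Col3a1 did not pass (adjusted p = 0.346 and 0.116), and the summed level was 17.4% to 57.7% of the normal mean, with no marker of these 4 lists at 0 in every tumor. In these whole-tissue libraries, fewer cells of a type and less RNA per cell cannot be told apart.

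Calca, which encodes calcitonin and, by alternative splicing, alpha CGRP, had the highest level of the 10 genes in every tumor. Its level was 1.96 and 1.40 CPM in normal 1 and 2, and 20.3, 293, 54.3 and 5.86 CPM in tumors 3, 4, 5 and 6. Every tumor lay above both normal libraries, from 3.48-fold over the normal mean in tumor 6 to 174-fold in tumor 4. The fitted log2 fold change was 5.79 ± 1.84 (SE; 93.3 ± 134 CPM, SD, n = 4, against 1.68 ± 0.395, n = 2; adjusted p = 0.0293 by edgeR). Calca no longer passed without normal 1 (6.04, adjusted p = 0.128), without normal 2 (5.55, adjusted p = 0.14) or by limma voom (4.39, adjusted p = 0.138), and its adjusted p ranged down to 0.000198 with DESeq2. Without tumor 4 the log2 fold change was 4.00 (adjusted p = 0.0163). Counts per gene do not separate the calcitonin and CGRP messages.

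**Figure D1:**
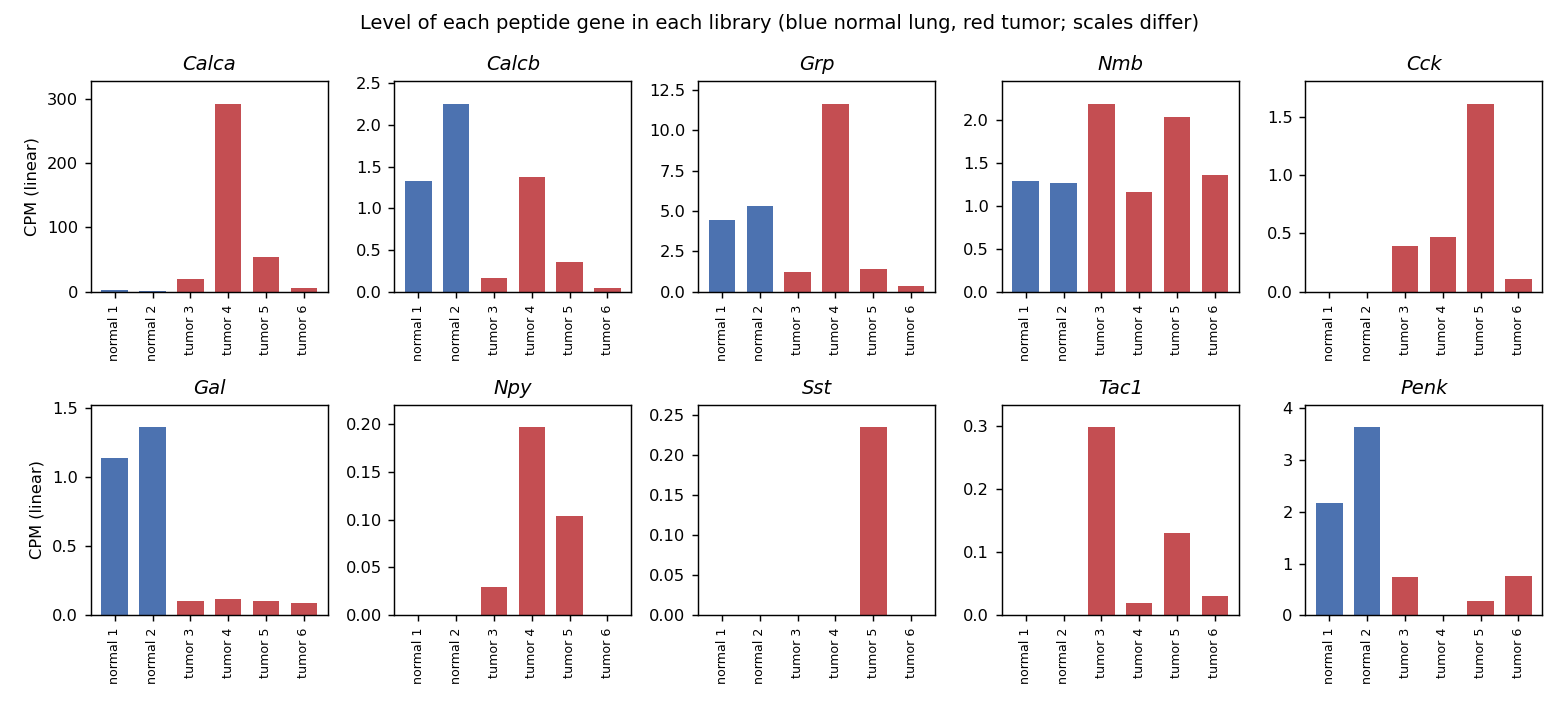
Level of each of the 10 peptide genes in each library, in CPM on linear axes from 0 whose scales differ, with the 2 normal libraries in blue and the 4 tumors in red. Calca reaches 293 CPM in tumor 4, whereas Gal is below both normal libraries in every tumor.

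Calcb, the neighbouring paralog that encodes beta CGRP, did not pass the test. It stood at 1.33 and 2.25 CPM in normal lung and at 0.164, 1.37, 0.352 and 0.0448 CPM in tumors 3 to 6, the last from 3 counts. Tumor 4 lay between the normal libraries and the other tumors lay below them. The log2 fold change was -1.90 ± 1.11 (adjusted p = 0.172), and Calcb passed as lower with limma voom (-2.81, adjusted p = 0.0293) and without tumor 4 (-3.24, adjusted p = 0.0151). The longest identical run between Calca and Calcb transcripts in GENCODE M21 is 61 bases, so reads of the shared stretch could be assigned to either gene.

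The bombesin-like peptides are encoded by Grp, known as a growth factor in human small cell lung cancer, and Nmb. Grp stood at 4.45 and 5.31 CPM in normal lung and at 1.24, 11.7, 1.41 and 0.358 CPM in tumors 3 to 6. It was 2.39-fold above the normal mean in tumor 4 and 3.94-fold, 3.47-fold and 13.6-fold below it in tumors 3, 5 and 6. With the tumors on both sides of normal lung, the log2 fold change was -0.42 ± 1.23 (adjusted p = 0.783). Without tumor 4 Grp passed as lower (-2.28, adjusted p = 0.0183), and without tumor 6 its sign turned (0.031, adjusted p = 0.98). An antisense gene overlaps the span of Grp in GENCODE M21. Since the strand setting of the counts is not given, any of its reads that fall in Grp exons cannot be separated.

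Nmb, which encodes neuromedin B, did not pass the test. It stood at 1.29 and 1.26 CPM in normal lung and at 2.19, 1.16, 2.03 and 1.36 CPM in tumors 3 to 6, so the groups overlapped. The log2 fold change was 0.40 ± 0.42 (adjusted p = 0.432). The span of Nmb overlaps that of Sec11a on the same strand in GENCODE M21, which makes the assignment of any reads in shared exons uncertain.

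Gal, the gene of galanin, was the member that fell. It stood at 1.14 and 1.36 CPM in normal lung, from 112 and 126 counts, and at 0.104, 0.118, 0.104 and 0.0896 CPM in tumors 3 to 6, from 6 to 8 counts each. All tumors were below both normal libraries, by 10.6-fold to 13.9-fold against the normal mean. The log2 fold change was -3.57 ± 0.41 (adjusted p = 0.000469 by edgeR), it was lower in 4 of 4 tumors, and the call held in every alternative tried. The markers of lung epithelium and endothelium fell as well (medians -5.66 and -5.58), and their part in the fall of Gal was not tested.

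Penk, the precursor of the enkephalins, was also below both normal libraries in every tumor but did not pass the test. It stood at 2.16 and 3.64 CPM in normal lung and at 0.745, 0, 0.273 and 0.762 CPM in tumors 3 to 6, where the 0 in tumor 4 allows up to 0.0589 CPM (3 counts). The log2 fold change was -2.69 ± 1.17 (adjusted p = 0.0823), and it passed with limma voom (-3.68, adjusted p = 0.0305) and without tumor 4 (-2.28, adjusted p = 0.0145). Among all tested genes, 39.9% had every tumor below both normal libraries and 37.4% had every tumor above them. An antisense transcript overlaps Penk in GENCODE M21.

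The remaining 4 members had no count in either normal library, where 3 counts would have been 0.0305 and 0.0324 CPM. Cck, the gene of cholecystokinin, had 26, 24, 124 and 7 counts in tumors 3 to 6, or 0.387, 0.471, 1.61 and 0.105 CPM. Against a floor of 3 counts over both normal libraries, the pooled tumor level was at least 44.1-fold higher. The test passed (adjusted p = 0.0121), but not without normal 1 (adjusted p = 0.0502). Cck was detected in all 4 tumors, most in tumor 5.

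Tac1, which encodes substance P and neurokinin A, had 20, 1, 10 and 2 counts in tumors 3 to 6. That is at least 8.03-fold higher, with adjusted p = 0.0384, and the call was lost without normal 1 (adjusted p = 0.126) and without normal 2 (adjusted p = 0.118). Cck and Tac1 passed the filter on low counts through their tumor counts alone. Npy, the gene of neuropeptide Y, had 2, 10, 8 and 0 counts, and Sst, the gene of somatostatin, had 18 counts in tumor 5 and none in tumors 3, 4 and 6. Pooled, they were at least 4.87-fold and at least 4.38-fold higher, but neither reached the filter, and without the filter neither passed (adjusted p = 0.0831 and 0.206). The tumors without Sst counts allow up to 0.0447 to 0.0589 CPM, so lower levels were not detectable at this depth.

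In all, 8 of the 10 genes were tested, of which Calca, Cck and Tac1 were higher, Gal was lower and 4 did not pass. Over all tested genes 31.3% were higher and 32.6% lower. Cck and Tac1 were in the test through their tumor counts alone. The median log2 fold change of the 8 tested members was -0.01, beside 0.02 over all genes tested. Calca, Cck and Tac1 had every tumor above both normal libraries and Gal and Penk every tumor below them, while 77.3% of all tested genes had such groups without overlap in 1 direction or the other. Leaving out normal 1 ended the call of all 3 higher genes, and leaving out normal 2 ended those of Calca and Tac1; such fits take the spread from the tumors alone. Without tumor 4, 4 members were lower, as Calcb, Grp and Penk then passed beside Gal.

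The make-up of the peptide signal was compared on a scale of CPM per kilobase of merged exons in GENCODE M21, on which genes of different length can be set side by side. In normal lung Grp held the most, 31.3% and 30.6% of the summed level of the 10 genes, Penk 13.8% and 18.9%, Nmb 16.9% and 13.5%, Gal 15.0% and 14.7%, Calcb 10.9% and 15.2%, and Calca 12.1% and 7.09%. In tumors Calca held 71.7%, 93.9%, 84.6% and 56.6% in tumors 3 to 6. Nmb was next in tumors 3, 5 and 6, at 16.4%, 6.72% and 27.9%, and Grp in tumor 4, at 4.27%. The summed level was 9.62 and 11.8 CPM per kilobase in normal lung, and 16.8, 185, 38.1 and 6.14 in tumors 3 to 6, so tumor 6 held less of these 10 messages in total than either normal library.

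**Figure D2:**
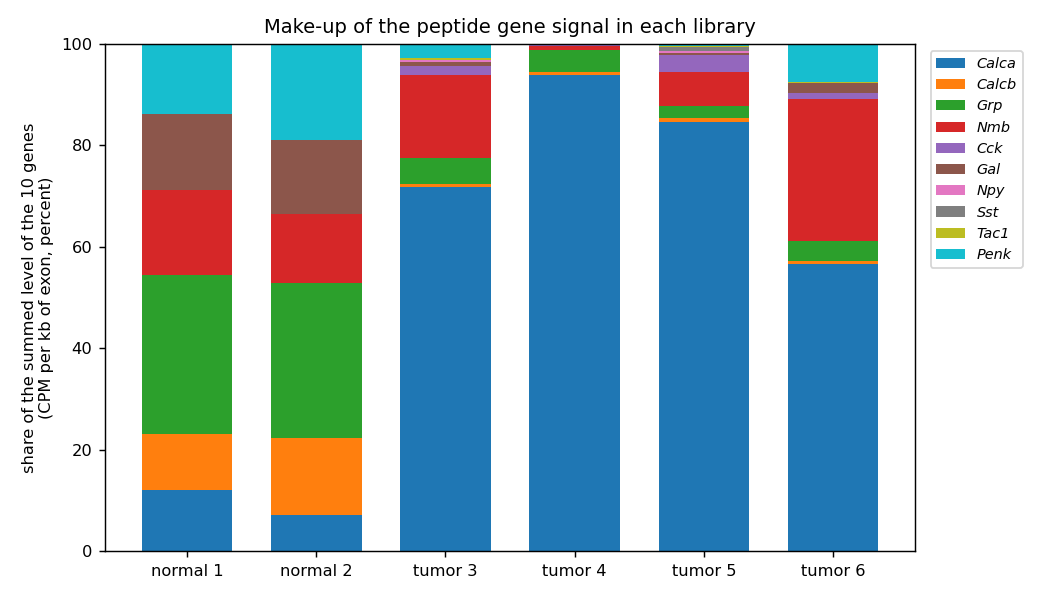
Share of each of the 10 peptide genes in their summed level per library, in percent of CPM per kilobase of exon. Calca takes 7.09% to 12.1% in normal lung and 56.6% to 93.9% in tumors.

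Several members differed among the tumors by far more than most genes. The SD of log2 CPM over the 4 tumors was 2.38 for Calca, 2.30 for Penk, 2.05 for Grp and 1.80 for Calcb, against a median of 0.38 over all tested genes. Of the tested genes, 98.5%, 98.2%, 97.4% and 96.1% in that order had a lower SD. The SD of Penk depends on the prior count of 2, since Penk had 0 counts in tumor 4. The lowest Calcb level, in tumor 6, comes from 3 counts. Calca spanned 49.98-fold from the lowest to the highest tumor, Grp 32.5-fold and Calcb 30.7-fold. Gal spanned 1.31-fold, with 6.47% of genes at a lower SD. Nmb spanned 1.89-fold, and its SD of 0.44 was near that of a typical gene, with 56.6% lower. With 1 library per tumor, these spans have no replicate check.

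Calcb and Grp had the same order of the tumors as Calca, highest in tumor 4, then tumors 5, 3 and 6. The order was taken from Calca, which therefore matches by construction. It was held by 3.78% of all tested genes and by 3 of the 8 tested members, Calca included. Npy, which was not tested, had it as well, from 2, 10, 8 and 0 counts in tumors 3 to 6. Iapp, the amylin gene of the calcitonin family, named after its values were seen, had the same order and passed as higher (adjusted p = 0.0137, but 0.085 without normal 1 and 0.059 without normal 2), at 8.95 CPM in tumor 4 against 0.685, 1.46 and 0.329 CPM in tumors 3, 5 and 6. So did Chga, which encodes the granule protein chromogranin A and was also named after its values were seen. It stood at 85.8, 162, 107 and 55.03 CPM in tumors 3 to 6. Of the 10 tested neuroendocrine markers only 2, Chga and Resp18, had this order. The receptor genes Oprd1 and Ramp2 had it as well, though Ramp2 was lower in tumors. Chga spanned less than Calca over the tumors. Cck and Sst were highest in tumor 5, Tac1 and Nmb in tumor 3, and Penk in tumor 6.

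**Figure D3:**
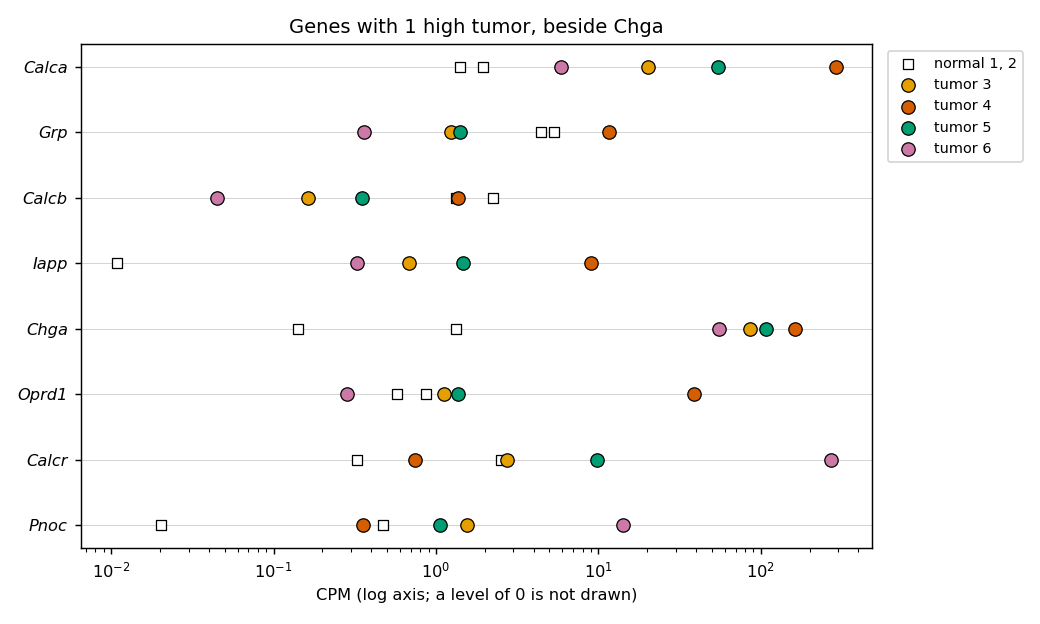
CPM on a log axis of genes with a single high tumor, beside Calcb and Chga. Filled circles are tumors and open squares normal libraries, and a level of 0 is not drawn. Tumor 4 is highest of the tumors for Calca, Grp, Calcb, Iapp, Chga and Oprd1, and tumor 6 for Calcr and Pnoc. For Calcb, tumor 4 lies between the normal libraries.

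Of 29 receptor genes for these peptides, 23 were tested (median log2 fold change 1.21). Of these, 6 were lower, 4 higher and 13 did not pass, beside 32.6% lower and 31.3% higher over all tested genes. The lower receptor genes included parts of the CGRP and adrenomedullin receptors. Calcrl, their shared receptor chain, stood at 2914 and 2561 CPM in normal lung and at 35.5, 19.0, 23.8 and 8.92 CPM in tumors 3 to 6 (125-fold lower, adjusted p = 0.000112). The accessory chains Ramp2 and Ramp1 were 67.7-fold and 5.35-fold lower, and Ramp1, which makes the CGRP receptor, stayed at 2.94 to 5.33 CPM. Cckar, a cholecystokinin receptor, was 140-fold lower. Endothelial markers, a cell type in which Calcrl and Ramp2 are known to be high, fell alongside (median -5.58), and their part in these changes was not tested.

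The higher receptor genes were all low in level. All 4, Cckbr, Npy5r, Nmbr and Sstr3, passed the filter on low counts through their tumor counts alone. They had at most 6 counts in a normal library, and a gene as low in both groups would not have been tested. Cckbr, the other cholecystokinin receptor, had no count in normal lung and 10, 52, 205 and 18 in tumors 3 to 6, at least 69.4-fold higher (adjusted p = 0.0153). Like Cck it was highest in tumor 5. Npy5r, a neuropeptide Y receptor, went from 2 counts over both normal libraries to 239 over the tumors, a ratio of 87.3 in pooled level (95% exact interval 23.9 to 725, adjusted p = 0.01 by edgeR). Nmbr, the neuromedin B receptor, and Sstr3, a somatostatin receptor, rose 7.58-fold and 5.83-fold, with at most 0.387 and 0.493 CPM in any tumor. Without normal 1 Cckbr and Sstr3 were lost, without normal 2 all 4 were, and Sstr3 was lost as well without tumor 3, 5 or 6 (adjusted p = 0.0555, 0.0855 and 0.0698). Without tumor 4, 7 receptor genes were higher. Grpr, the GRP receptor, was at most 0.179 CPM in any library and did not pass (adjusted p = 0.404).

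Calcr and Oprd1 were singled out after their values were seen, each for 1 tumor. Calcr, the calcitonin receptor, stood at 0.325 and 2.52 CPM in normal lung and at 2.74, 0.746, 9.81 and 271 CPM in tumors 3 to 6. Its highest tumor was thus the one lowest in Calca, and its lowest tumor the one highest in Calca. Oprd1, the delta opioid receptor of enkephalins, stood at 38.8 CPM in tumor 4, where Penk had no count, and at 0.284 to 1.37 CPM in every other library. Neither passed over the groups (adjusted p = 0.123 and 0.162).

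Of 9 peptide processing genes 5 were higher, beside 31.3% of all tested genes, 1 was lower, and Pam, Qpct and Ctsl did not pass, with log2 fold changes of -0.68, -0.30 and -0.12. The convertases Pcsk1 and Pcsk2, which cut precursors in granules, were 39.3-fold and 139-fold higher, Scg5, the chaperone of Pcsk2, 125-fold and the carboxypeptidase Cpe 5.55-fold. Pcsk2, with 5 and 34 counts in normal 1 and 2, needed its tumor counts to pass the filter on low counts. So did the fifth higher gene, Pcsk1n, at 0 and 0.248 CPM in normal 1 and 2. In tumor 6, which was lowest in Calca, Pcsk1 still stood at 41.0 CPM against 2.70 and 2.15 CPM in normal lung. Furin, the convertase of most cells, was 4.19-fold lower. The amidating enzyme Pam did not pass, at 489.5 and 552 CPM in normal lung and 155 to 399.7 CPM in tumors (adjusted p = 0.149).

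All 8 cell surface peptidases were lower, beside 32.6% of all tested genes, with a median log2 fold change of -4.99. Ace, the angiotensin-converting enzyme, was 68.1-fold lower and Dpp4, which clips neuropeptide Y, 33.8-fold. Ece1 and the carboxypeptidase Cpm were 13.9-fold and 50.1-fold lower. Mme, or neprilysin, which degrades bombesin-like peptides and tachykinins, was named after its values were seen. It went from 327 and 285 CPM to between 1.37 and 7.70 CPM (62.6-fold, adjusted p = 0.000292). Epithelial and endothelial markers fell at the same time, and their part was not tested.

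**Figure D4:**
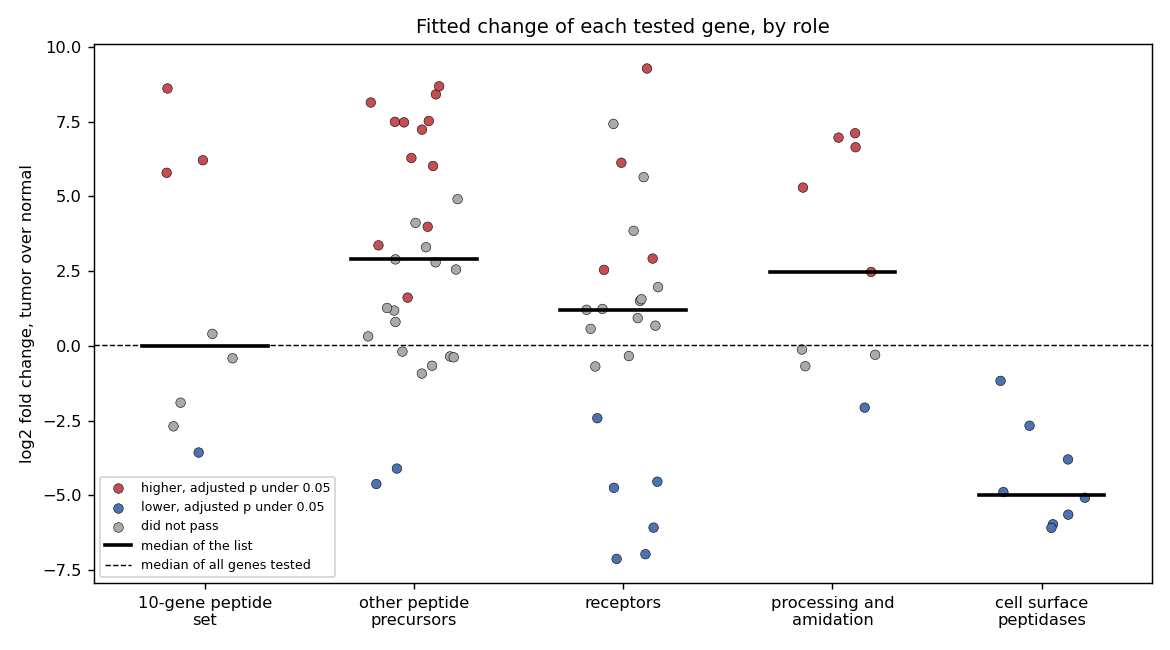
Log2 fold change of each tested gene, tumor over normal, by role, colored by whether it passed at adjusted p under 0.05, with the list median as a bar and the median of all genes as a dashed line. The 8 peptidases all lie below 0, whereas the 10-gene peptide set lies on both sides.

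Of 48 other peptide precursor genes in the table, 29 were tested (median log2 fold change 2.89). Of these, 12 were higher, 2 lower and 15 did not pass, beside 31.3% higher and 32.6% lower over all tested genes. Of the 12 higher genes, 5 had no normal count (Pdyn, Crh, Trh, Gast and Cort) and passed the filter on low counts through the tumors alone. The same held for at least Iapp, Cartpt, Adm2 and Sct, with at most 0.0216 CPM in either normal library. A gene low in both groups could not pass, so the count and the median lean toward higher genes by construction. Pmch, the precursor of melanin-concentrating hormone, stood at 0.244 and 0.227 CPM in normal lung and at 2.70, 4.14, 4.05 and 4.11 CPM in tumors 3 to 6 (15.8-fold, adjusted p = 0.000386), with tumor 3 below the other tumors. Pomc, the precursor of corticotropin and beta-endorphin, was 10.3-fold higher. With 14 and 10 counts in normal 1 and 2, Pomc too passed the filter through its tumor counts alone. Adm2, of the calcitonin family, went from 3 counts over the normal libraries to 321 over the tumors, a ratio of 78.1 (95% exact interval 26.5 to 381), and Cort, the paralog of Sst, had none in normal lung and was at least 19.7-fold higher. Npw (neuropeptide W) and Ppy (pancreatic polypeptide) were 17.2-fold and 24.6-fold lower. Overlaps with other genes were not looked up for the genes of this list. Without normal 1 and without normal 2 the number of higher genes was 5. By level, only Nppa (atrial natriuretic peptide), at 14.1 and 13.3 CPM in tumors 3 and 4, and Pnoc (the nociceptin precursor), at 14.2 CPM in tumor 6, reached 10 CPM in any tumor, and neither passed (adjusted p = 0.578 and 0.111).

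Nerve fibers and Schwann cells are another source of these peptides. Of their 12 markers, 4 were higher in tumors and none lower, beside 31.3% and 32.6% of all tested genes. Those were the neurofilament genes Nefl, Nefm and Nefh and the peripherin gene Prph. Nefl and Nefm needed their tumor counts to pass the filter on low counts. The other 6 tested did not pass, and Dbh, of noradrenergic nerves, was at 0 in every tumor. The summed level of the list was 71.7 and 78.0 CPM in normal lung and 144 to 322 CPM in tumors, highest in tumor 6, the tumor lowest in Calca. Different genes make up this sum in the groups. Mbp, which did not pass (adjusted p = 0.432 by edgeR), held 66.8 and 66.9 CPM of it in normal lung and 76.1 CPM in tumor 6. Nefl, Nefm and Nefh held 52.2, 107 and 76.9 CPM in tumor 6. The neuroendocrine markers summed to 23.3 CPM in normal 1 and 30.8 CPM in normal 2, with Chga at 0.142 and 1.34 CPM but Resp18 at 2.58 and 1.35 CPM, and Calca was at 1.96 and 1.40 CPM. The part of these differences in the results was not tested.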

How the data were processed

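Poly(A) RNA of flash-frozen tissue was sequenced with NEBNext Ultra II libraries, per the labels' protocols. The deposited table holds unnormalized counts per gene symbol, which the labels credit to TPMCalculator. Further names in the submitters' processing notes are the build mm9, R 3.5.1, DESeq2 1.22.2, STAR 2.5.4a, Trimmomatic 0.36 and Trim Galore, with no role or order. The annotation and strand setting were not given in the sources used here. Of the counts from 1 to 10, 61.2% were even, so counts may not all be separate fragments. Floors and intervals cover counting error only.

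The 2 normal and 4 tumor libraries were grouped by tissue type. In R 4.3.3, edgeR 4.0.16 was fitted by quasi-likelihood with TMM scaling and tissue as the only term, after filterByExpr with a minimum count of 10 and a minimum total of 15. Benjamini-Hochberg adjustment ran over all 18027 genes that passed. The SE is the size of the log2 fold change divided by the square root of F. CPM use TMM-scaled totals, and log2 CPM a prior count of 2. A group without counts was set to a floor of 3 counts over both of its libraries. The test was checked on simulated counts.

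Members, lists and tests were chosen with earlier results of these data known. The genes named were the 10 members, the 4 receptors of smallest p per direction, up to 4 called genes per direction of each other list, and other peptide genes of at least 10 CPM in a tumor. Calcr, Oprd1, Iapp, Chga, Mme, Grpr, Pam, Pth, Adcyap1, Cartpt, Nts and the nerve markers were named after their values were seen. Ins1 and Ins2 were not analysed here. As alternatives, scaling was changed to RLE, upper quartile or plain totals, the filter was dropped or raised (at least 1 CPM throughout a group), the test was run in limma 3.58.1 (voom) or DESeq2 1.42.0, histone, small and tailless RNA genes were taken out, and each library was left out in turn. Exon lengths and overlaps come from GENCODE M21 on GRCm38, which differs from mm9, and overlaps were looked up for the 10 members only. They were taken between whole gene spans, introns included. The level of 1 neuroendocrine marker is not reported here.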

Additional observations from a re-analysis of the deposited data

Results flagged for a closer look

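In 10 of 50 named genes the highest or lowest of the 4 tumors lay far from the others, by a gap to its nearest neighbour, as a share of the whole range in CPM, above the 95% critical value of Dixon's test for 4 values. For normally distributed values, chance gives such a gap in about 1 of 20 groups of 4; CPM are skewed, and the rate over these genes was not measured. A gene with counts in 1 tumor only, as Sst and Pth, has a ratio of 1 by construction, and 5 of the 10, Calcr, Oprd1, Iapp, Pth and Adcyap1, were named after their values were seen. Among the 10 members, Calca (0.831 of the range), Grp (0.907) and Sst (1) were marked. Tumor 4 was apart for Calca, at 293 CPM against at most 54.3, and for Grp, at 11.7 against at most 1.41 CPM. Tumor 5 held all 18 counts of Sst. Tumor 4 was apart for Oprd1 (0.972) and Iapp (0.869) as well, tumor 6 for Calcr (0.967), Pnoc (0.914) and Pth (1), tumor 5 for Adcyap1 (0.948), and tumor 3 for Pmch (0.936), where it was the lowest at 2.70 CPM. For Oprd1 the level in tumor 4 was 54.1-fold over the normal mean, and for Calcr the level in tumor 6 was 191-fold over it.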

How the results depend on the processing

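Gal passed as lower, and Nmb did not pass, in every alternative tried. With limma voom Calca did not pass (4.39), Calcb (-2.81) and Penk (-3.68) passed, and 3 members were lower. With the stricter filter 1 member, no receptor and 1 other peptide gene were higher and 1 other peptide gene was lower, since fewer low genes were tested. Leaving out 1 library at a time, log2 fold changes ran from 4.00 to 6.25 for Calca, 7.60 to 9.04 for Cck, 6.11 to 6.63 for Tac1, -3.24 to -1.45 for Calcb, -3.04 to -2.28 for Penk and -2.28 to 0.031 for Grp, whose positive value is that without tumor 6. Members called higher ran from 0 to 3 and lower from 1 to 4, receptors higher from 0 to 7, other peptide genes higher from 5 to 13, and all genes higher from 3373 to 5912. The lowest count of all genes was without normal 1, and 3740 were higher without normal 2. The cause was not tested. Tac1 was not tested, for low counts, under the stricter filter, with tailless RNA genes removed, and without tumor 3 or tumor 5, and Cck not under the stricter filter. DESeq2 gave no adjusted p for Grp. Upper quartile scaling moved the median log2 fold change of all genes from 0.02 to 0.14, a shift relative to which changes under that scaling stand, and no member's direction turned under any scaling. Depth limits Npy, Sst and Tac1, whose tumor totals were 20, 18 and 33 counts. No paired analysis was possible because each mouse gave 1 library.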

Other observations

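Of the 48 other peptide precursor genes, 19 did not reach the filter on low counts, and 2 of these passed 0.5 CPM in a single tumor. Pth, the gene of parathyroid hormone, stood at 1.85 CPM in tumor 6 and at no count in tumors 3, 4 and 5. Adcyap1, the gene of the peptide PACAP, stood at 0.755 CPM in tumor 5, at 0.0393 CPM in tumor 4 and at no count in tumors 3 and 6. Cartpt, the gene of cocaine- and amphetamine-regulated transcript peptide, was likewise highest in tumor 5, at 6.09 CPM against 0.253, 0.687 and 1.76 CPM in tumors 3, 4 and 6, and it passed the test (adjusted p = 0.0146 by edgeR), though not without normal 1 (adjusted p = 0.0857). Nts, the gene of neurotensin, was highest in tumor 3, at 9.85 CPM against 0.550 to 2.66 CPM in the other tumors, and did not pass (adjusted p = 0.0891). Each of the 4 tumors was thus the highest for some peptide gene named here. All 4 genes were named after their values were seen, and these levels rest on 1 library each.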
